A study of Mus musculus with 35 samples.

Results

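The phagocyte NADPH oxidase genes described here were Cybb, Cyba, Ncf1, Ncf4, Rac2 and Hvcn1, 6 of the 21236 genes in a table of read counts from sorted mouse microglia. They were chosen by name and by their regional levels in these samples, so the comparison between regions is a description of the members and carries no test. The 35 samples came from 12 adult mice and covered the midbrain (6 females, 6 males), the striatum (6 females, 6 males) and the PFC (prefrontal cortex; 6 females, 5 males). Every mouse was heterozygous for Tmem119-2A-CreERT2 and for Ai14(RCL-tdTomato)-D and received tamoxifen, and tdTomato-positive cells were sorted from each dissected region. Cre recombinase was thus driven by the Tmem119 gene, a marker of homeostatic microglia, and all groups shared the genotype and the drug, with no untreated group.

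The phagocyte NADPH oxidase moves electrons from NADPH across a membrane onto oxygen and so makes superoxide, the first product of the oxidative burst with which phagocytes act on ingested material. Its catalytic core is a membrane heterodimer of gp91phox (Cybb, also called NOX2) and p22phox (Cyba), and it works only once cytosolic subunits, among them p47phox (Ncf1) and p40phox (Ncf4), and a Rac GTPase have joined it. The proton channel HV1 (Hvcn1) lets out the protons that the reaction leaves behind, which keeps the enzyme running. In the brain the complex is known above all from microglia.

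The libraries held 37680501 to 54131421 counts each. Values are given as CPM, counts per 1000000 counts of the library after scaling with edgeR's TMM factors (trimmed mean of M-values), and 3 counts, taken as the limit of detection, came to 0.0561 to 0.0789 CPM. The 12 transcripts of a homeostatic microglia list were detected in every sample and summed to between 49196 and 62634 CPM, with Tmem119 at a mean of 3267 CPM and P2ry12 at 7169 CPM. The midbrain library of mouse 5 had the lowest correlation with its own group (median r of 0.946 with the others). The library of mouse 3 labelled as striatum carries the name of the PFC in its column heading, and no other library of that mouse was labelled as PFC. It was used as labelled, and values without it are given where it touches a result. The number of a sample was taken as its mouse, and values within a mouse are compared on that basis.

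RefSeq (GRCm38.p6) gave a promoter window for 3 of the 6 members, Cybb, Cyba and Ncf1. The 250 bases before the start of Cybb and Cyba are shown because these genes encode both subunits of the same membrane heterodimer, and their transcripts stood at opposite ends of the family in level and in regional spread. Capitals mark matches to 3 short motifs searched on both strands, the PU.1 core GAGGAA, the interferon-stimulated response element GAAANNGAAA and the CCAAT box. Both sequences run 5′ to 3′ on the minus strand. The Cybb stretch is chrX:9469325-9469574 and the Cyba stretch is chr8:122432941-122433190. The Cybb stretch lies inside the gene span used for naming the counts (9435252 to 9487771), so its RefSeq start is not the outermost annotated start.
Cybb: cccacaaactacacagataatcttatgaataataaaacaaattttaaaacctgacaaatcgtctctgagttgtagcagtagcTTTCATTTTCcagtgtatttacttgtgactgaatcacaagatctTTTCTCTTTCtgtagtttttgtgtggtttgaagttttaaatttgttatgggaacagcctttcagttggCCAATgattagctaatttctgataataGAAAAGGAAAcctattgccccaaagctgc
Cyba: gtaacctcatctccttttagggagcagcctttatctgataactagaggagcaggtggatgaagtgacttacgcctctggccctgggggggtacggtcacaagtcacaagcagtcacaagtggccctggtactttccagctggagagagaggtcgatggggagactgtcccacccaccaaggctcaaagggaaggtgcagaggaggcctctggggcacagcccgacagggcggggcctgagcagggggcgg
The Cybb stretch held 3 matches to the interferon-stimulated response element, beginning 168, 124 and 29 bases before the start, and 1 CCAAT box beginning 56 bases before it. These matches did not overlap each other. The PU.1 core in the form GAGGAA matched once in the Cybb window, from base 10 after the start, and other forms of a PU.1 site were not searched. None of the 3 motifs matched in the Cyba window, and Ncf1 held 1 match to the interferon-stimulated response element, 82 bases before its start. Over all 32851 promoter windows of 300 bases, 3.44% held at least 1 match to GAAANNGAAA, and 5 windows held at least 3. The PU.1 core was found in 28.3% and the CCAAT box in 37.4% of the windows. Matches of letters are a description of the window and were not tied to binding.

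Cybb, which encodes the catalytic subunit, was the member with a large regional difference. The gene lies on chromosome X (9435252 to 9487771, minus strand, GRCm38). In the midbrain its level ran from 5.62 to 77.9 CPM with a median of 15.2 CPM, in the striatum from 1.46 to 10.3 CPM with a median of 3.42 CPM, and in the PFC from 0.291 to 5.57 CPM with a median of 1.57 CPM. The means were 19.1 ± 19.2 CPM (SD, n = 12), 4.69 ± 2.94 (n = 12) and 2.05 ± 1.49 (n = 11). Every midbrain sample stood above every PFC sample, though the lowest of the former and the highest of the latter were only 0.0525 CPM apart. The same separation was seen in 0.348% of all genes. Midbrain and striatum overlapped, as did striatum and PFC. Since the samples are bulk RNA, fewer cells with Cybb and less Cybb RNA per cell cannot be told apart.

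Within mice, the PFC sample held less Cybb than the midbrain sample in 11 of 11 animals, and the striatum sample in 11 of 12. The exception was mouse 9, with 7.09 CPM in the midbrain and 10.3 CPM in the striatum. The striatum was above the PFC in 9 of 11 animals. The fitted difference from the midbrain was a log2 fold change of -3.21 (SE 0.44) for the PFC, a 9.26-fold lower level, and -1.96 (SE 0.41) for the striatum, a 3.89-fold lower level, while the striatum was above the PFC by 1.25 (SE 0.42). Leaving out the striatum library of mouse 3 (9.30 CPM of Cybb) gave -2.11 for the striatum against the midbrain and 1.11 against the PFC. Beside these, 1.82% of all genes were below the midbrain in the PFC of every mouse with both samples, and 1.21% in the striatum.

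The highest Cybb value belonged to the midbrain sample of mouse 6, a female. That sample had 77.9 CPM, against 2.08 CPM in the striatum and 1.57 CPM in the PFC of the same animal, and the next midbrain sample had 21.1 CPM. Border macrophages, which sit at the meninges and vessels and are also phagocytes, have their own markers. The 9 analysed transcripts of a list of 10 such markers summed to 131 CPM in this sample, against 3.21 to 24.2 CPM in the other midbrain samples, 5.10 to 13.4 CPM in the striatum and 3.95 to 11.1 CPM in the PFC. Most of that sum was Ms4a7, at 97.9 CPM, with Mrc1 at 16.4 CPM. Pf4 (5.41 CPM), Folr2 (2.80), Cd38 (3.67) and Cbr2 (1.59) also stood above every other midbrain sample. F13a1, Siglec1 and Cd163 did not. Cd163 was at 0.304 CPM here and at 0 counts in 25 of the 35 samples. Over all samples, mean Mrc1 was highest in the PFC. The means of Ms4a7, Pf4, Folr2, Cd38, F13a1 and Siglec1 fell from midbrain to striatum to PFC, and Cbr2 and Cd163 followed neither order. Without the midbrain sample of mouse 6 the log2 fold change of Cybb was -2.75 for the PFC and -1.55 for the striatum. The other 11 midbrain samples still ran from 5.62 to 21.1 CPM. The part of such cells in the midbrain values was not tested.

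**Figure D1:**
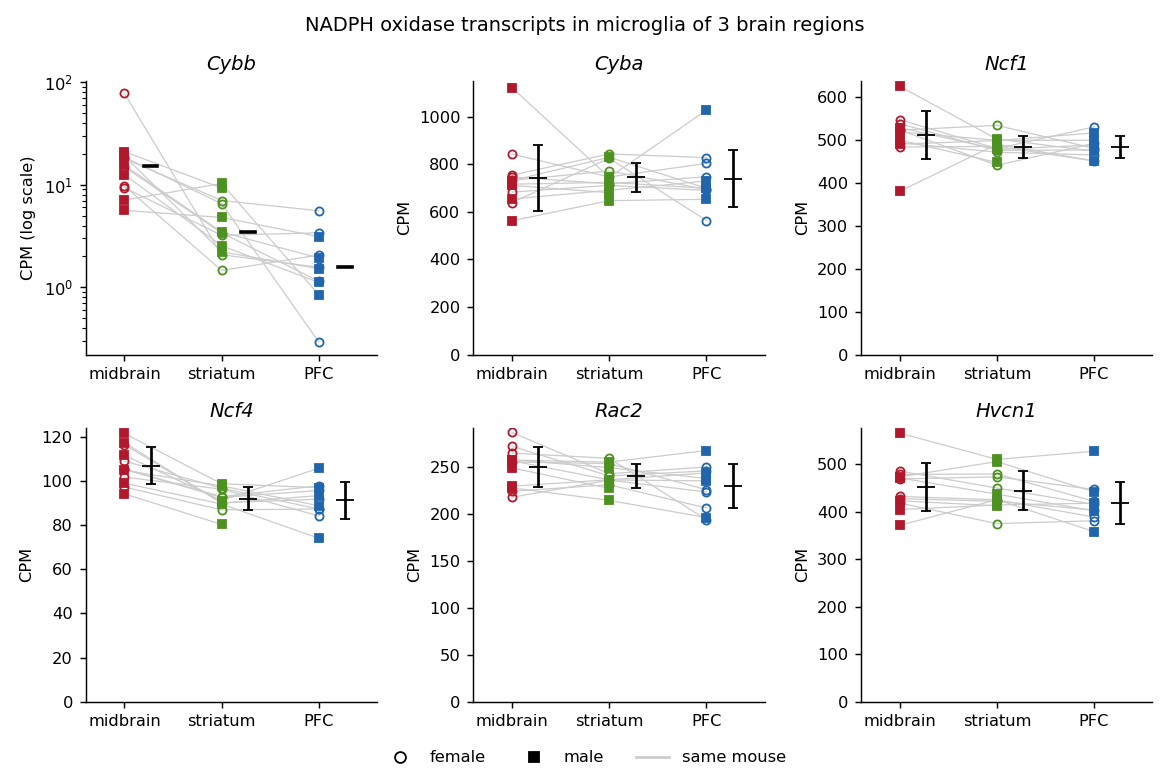
CPM of the 6 oxidase transcripts in midbrain, striatum and PFC; each point is 1 sample (open circles female, filled squares male), grey lines join the samples of a mouse, and black marks give the mean ± SD, or the median for Cybb, whose axis is logarithmic. The medians of Cybb are 15.2, 3.42 and 1.57 CPM, while the ranges of the other members overlap between all regions.

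Cyba, the p22phox partner that holds gp91phox in the membrane, did not show this order. The gene lies on chromosome 8 (122424776 to 122432930, minus strand). Its level ran from 563 to 1122 CPM in the midbrain (741.6 ± 138, SD, n = 12), from 647 to 844 CPM in the striatum (745 ± 62.5, n = 12) and from 564 to 1028 CPM in the PFC (739.8 ± 119, n = 11). The ranges overlapped. The log2 fold change was 0.00 (SE 0.08) for the PFC and 0.01 (SE 0.08) for the striatum against the midbrain, and Cyba was below its midbrain level in the PFC of 6 of 11 mice. The highest values, 1122 and 1028 CPM, both belonged to mouse 5.

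Ncf1 encodes p47phox, the organizer that is phosphorylated and then docks on p22phox. It lies on chromosome 5 (134220053 to 134229625). Midbrain samples averaged 512 ± 55.9 CPM (SD, n = 12), with a range of 380.2 to 624.8 CPM, striatum samples 483 ± 24.8 (n = 12) and PFC samples 484 ± 24.9 (n = 11). The striatum and PFC samples, between 441 and 534 CPM, all fell inside the midbrain range. The log2 fold change was -0.08 (SE 0.05) for both, and 9 of 11 mice had less in the PFC. Exons of Ncf1 share 408 bases with Gtf2ird2 on the other strand, and the ratio of the counts of Gtf2ird2 to those of Ncf1 stayed between 0.156 and 0.195.

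Ncf4, for p40phox, the subunit that binds a phagosomal lipid, stood highest in the midbrain of every mouse, by a small margin. Midbrain samples averaged 107 ± 8.51 CPM (SD, n = 12), striatum samples 92.0 ± 5.21 (n = 12) and PFC samples 91.2 ± 8.36 (n = 11). The midbrain range of 94.2 to 122 CPM overlapped with 80.3 to 98.8 CPM in the striatum and 74.1 to 106 CPM in the PFC. The PFC sample was below the midbrain sample in 11 of 11 mice, and the striatum sample in 12 of 12. The log2 fold change was -0.23 (SE 0.05) and -0.22 (SE 0.05), a 1.17-fold and a 1.16-fold lower level, under the 1.2-fold minimum that the study set. Ncf4 lies on chromosome 15 (78244801 to 78262580) and shares no exon with another gene.

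Rac2 is the Rac GTPase of blood cells. It lies on chromosome 15 (78559167 to 78572783, minus strand). Midbrain samples averaged 250.3 ± 21.04 CPM (SD, n = 12) with a range of 218 to 287 CPM, striatum samples 241 ± 12.9 (n = 12) with 215 to 259.7 CPM, and PFC samples 229.97 ± 23.3 (n = 11) with 194 to 268 CPM. The log2 fold changes were -0.12 (SE 0.05) for the PFC and -0.06 (SE 0.05) for the striatum. Rac2 was below its midbrain level in the PFC of 8 of 11 mice and in the striatum of 9 of 12, and all ranges overlapped.

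Hvcn1, the proton channel, lies on chromosome 5 (122206804 to 122242297, plus strand). Midbrain samples averaged 452 ± 50.1 CPM (SD, n = 12) with a range of 371 to 566 CPM, striatum samples 444 ± 40.7 (n = 12) with 375 to 510.2 CPM, and PFC samples 418 ± 44.3 (n = 11) with 358 to 527 CPM. The ranges overlapped. In the PFC 10 of 11 mice were below their own midbrain, with a log2 fold change of -0.11 (SE 0.06), and in the striatum 7 of 12, with -0.02 (SE 0.06).

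Hvcn1 shares 1574 exon bases with Tctn1, a gene on the opposite strand, and how reads of opposite strands were counted is not given in the sources used here. The 2 counts moved as one. The ratio of Tctn1 to Hvcn1 was 0.662 to 0.736 over the 35 samples, a coefficient of variation of 2.09%, while Hvcn1 itself varied by 10.5%. Reads of both genes cannot be told apart here, so values of Hvcn1 are uncertain. Rac2 and Rac1 are close paralogs, and how reads that match several places were counted is likewise not given.

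Rac1, the Rac GTPase found in most cells, is not a member. It averaged 1029.5 ± 67.2 CPM in midbrain, 1063 ± 61.6 in striatum and 1088 ± 64.4 in PFC samples. The log2 fold change for the PFC was 0.08 (SE 0.04), and Rac1 did not pass the test of a region effect across all genes (edgeR quasi-likelihood F-test, Benjamini-Hochberg adjusted p = 0.46). Rac1 shares 2309 exon bases with Daglb on the opposite strand.

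Of the 6 members, Cybb and Ncf4 were among the 8.89% of all genes with a region effect at an adjusted p under 0.05. Of these, only Cybb also passed a fold of 1.2 for a pair of regions. It did so for the PFC against the midbrain, where 3.24% of all genes were called lower, for the striatum against the midbrain, where 2.98% were called lower, and for the striatum against the PFC, where 2.31% were called higher. No member was among the genes called in the other directions, which made up 2.75%, 3.5% and 0.833%. The members were chosen with such values in view, and nothing is read from these counts.

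Over the 35 samples the members did not move as a unit. The Pearson r of log2 CPM between Cybb and the other members ran from -0.14 for Cyba to 0.47 for Ncf4, and that among Ncf1, Ncf4, Rac2 and Hvcn1 from 0.32 to 0.49. Cyba had r = -0.59 with Ncf1 and -0.53 with Hvcn1. The points share region, library and mouse, and these values are a description. The ratio of Ncf1 to Ncf4 in CPM ran from 3.40 to 6.97.

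The transcripts of the enzyme also differed in level, which can be compared between genes per kilobase of exon. Over all 35 samples Cyba had 714 ± 104 CPM per kilobase (SD), Ncf1 135 ± 10.9, Hvcn1 123 ± 12.9, Rac2 77.5 ± 6.65, Ncf4 47.97 ± 5.15 and Cybb 1.52 ± 2.31. Ncf1 and Hvcn1 were within their spread of each other, and the other neighbours in that order lay farther apart than their SD. Rac1 (236 ± 14.9) fell between Cyba and Ncf1. The scale takes coverage to be even along a transcript. Ncf1, Hvcn1 and Rac1 share exon bases with genes on the other strand, which leaves their levels uncertain.

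In the midbrain Cybb reached 3.29 ± 3.30 CPM per kilobase (SD, n = 12), in the striatum 0.808 ± 0.506 (n = 12) and in the PFC 0.353 ± 0.256 (n = 11). The level of Cyba per kilobase was thus 276 times that of Cybb in the median midbrain sample (range 54.2 to 728), 1175 times in the striatum (393 to 2962) and 2413 times in the PFC (693 to 14386). Among the 6 members and Rac1, the transcript of the catalytic subunit had the lowest mean level per kilobase in each region.

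**Figure D2:**
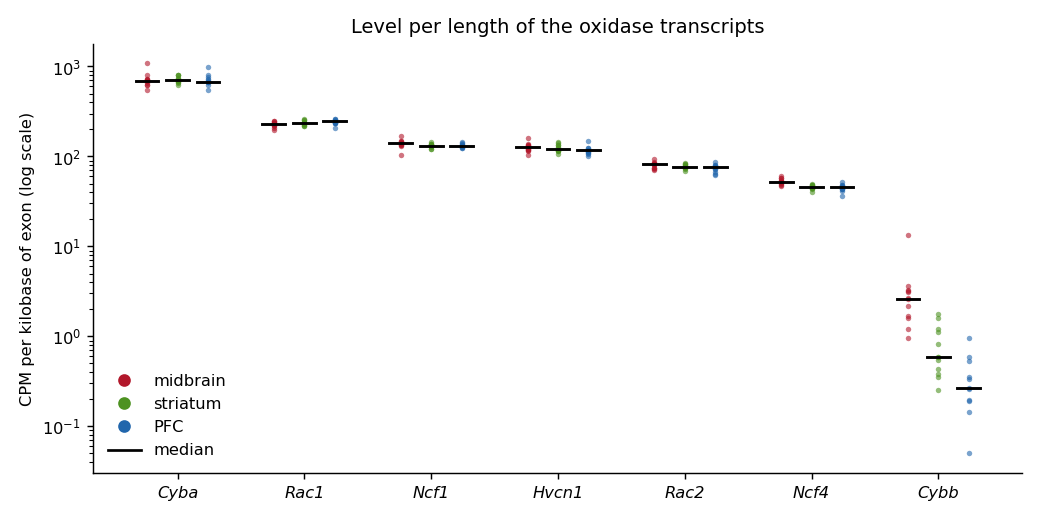
CPM per kilobase of exon, on a log axis, of the 6 members and of Rac1; each point is 1 sample, coloured by region, and bars are medians. Cyba lies near 714 and Cybb between 0.353 and 3.29 on average, with Ncf4 at 47.97 the next lowest.

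Sex was not used to choose the members and was tested across all genes, with the 35 samples as units and no term for the mouse. Cybb is X-linked. In the midbrain it was at 9.38 to 77.9 CPM in females (median 16.5) and at 5.62 to 21.1 CPM in males (median 14.02), in the striatum at 1.46 to 7.02 CPM in females (median 3.30) and at 2.22 to 10.3 CPM in males (median 4.13). In the PFC, females had 0.291 to 5.57 CPM (median 1.81) and the 5 males 0.842, 1.11, 1.51, 1.93 and 3.12 CPM. The sexes overlapped in every region. Over all regions, males were lower by a log2 fold change of -0.29 (SE 0.33), which did not pass the test (edgeR, adjusted p = 0.94). Without the midbrain sample of mouse 6 the difference was 0.01.

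The other members differed less between males and females, with log2 fold changes over all regions between -0.01 (Rac2) and 0.04 (Hvcn1). With edgeR, 0 of the 6 members reached an unadjusted p under 0.05, with or without a fold of 1.2, and 0 were called with DESeq2 or with limma-voom, while 4.13% of all genes passed p under 0.05 with a fold over 1.2. Within regions 0 members passed either, beside 4.84% of all genes in the midbrain, 2.28% in the striatum and 5.29% in the PFC. The largest difference was Cybb in the midbrain, at -0.88 (SE 0.54; edgeR adjusted p = 0.995), and without mouse 6 it was -0.07 (SE 0.49). In the striatum Cybb stood at 0.46 (SE 0.55) and in the PFC at -0.45 (SE 0.60).

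For the region by sex interaction, 0 members passed an adjusted p under 0.05 in edgeR and 0 had an unadjusted p under 0.05. Over all genes, 0 passed the adjusted and 632 the unadjusted threshold. DESeq2 called 0 members and 1 gene in all. The regional difference of Cybb between striatum and midbrain was smaller in males than in females by 1.34 (SE 0.77) on the log2 scale, which did not pass (edgeR adjusted p = 1.0), and by 0.53 (SE 0.69) without the midbrain sample of mouse 6.

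**Figure D3:**
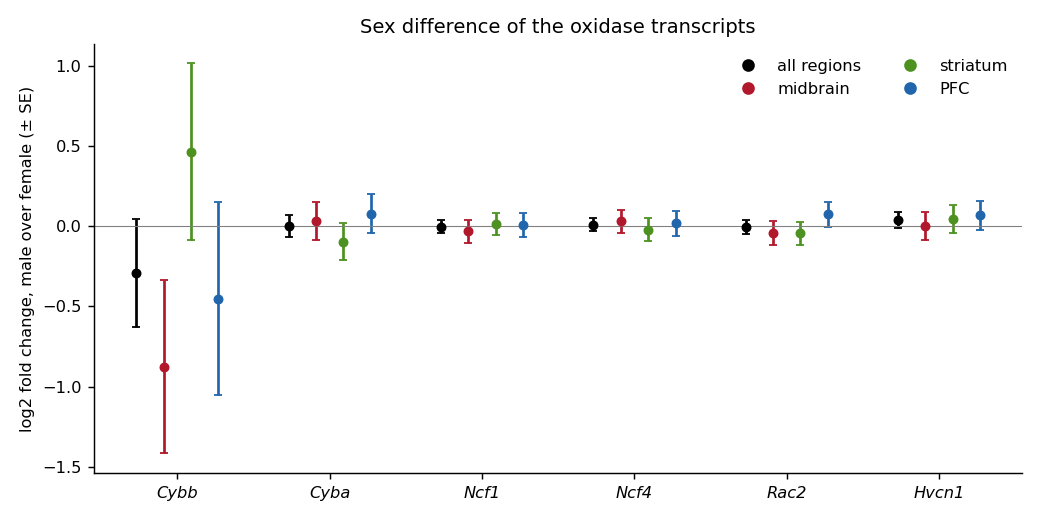
Log2 fold change of males over females with its SE (bars) for each member, over all regions and within the midbrain, striatum and PFC. The intervals of Cybb are wide (SE 0.33 over all regions) and the other members lie near 0.

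The labels name no batch, yet the mice differed by number. With counts summed over the regions of each animal, so that the mouse was the unit, mice 7 to 12 differed from mice 1 to 6 in 14.8% of all genes (edgeR with sex as a term, adjusted p under 0.05; 3 males and 3 females on each side, with no PFC sample for mouse 3). With the 35 samples as units the share was 23.9%, but samples of the same animal were alike, so that fit counts animals more than once. Among the members, Hvcn1 was at 408 ± 15.2 CPM in mice 1 to 6 (SD, n = 6 mice) and 468 ± 33.8 in mice 7 to 12 (n = 6), a log2 fold change of 0.20 (SE 0.05, edgeR adjusted p = 0.0182). Cyba was at 796 ± 89.3 and 686 ± 40.7 CPM (-0.21, SE 0.07), which did not pass per mouse (edgeR adjusted p = 0.0538) and passed with samples as units (adjusted p = 0.00463). Tctn1, which overlaps Hvcn1, differed by 0.19 (adjusted p = 0.0255). Cybb (-0.65, SE 0.43), Ncf1 (0.05), Ncf4 (0.09) and Rac2 (0.00) did not pass. For Cyba and Hvcn1 these log2 fold changes were larger than those between regions. Within each set of mice Cybb kept its direction, with a PFC to midbrain log2 fold change of -4.10 for mice 1 to 6 and -2.41 for mice 7 to 12, and Ncf4 had -0.19 and -0.28.

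Lists of 88 other genes that act with the oxidase were examined, of which 81 were analysed. In all, 15 of the 81 had a region effect at an adjusted p under 0.05, and a gene was called for a pair of regions where that pair also had an unadjusted p under 0.05 and a fold over 1.2. Among all genes 8.89% had such an effect. The PFC against the midbrain gave 2 genes called higher and 5 called lower, beside 2.75% and 3.24% of all genes. The striatum against the midbrain gave 2 higher and 4 lower, beside 3.5% and 2.98%. The striatum against the PFC gave 2 higher and 0 lower, beside 2.31% and 0.833%, and 5 in all with the mouse as a replicate block. The p-values printed for these genes are from edgeR and adjusted over all genes, so a called pair can have an adjusted p above 0.05.

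Among receptors that set off the burst, 2 of 9 changed, both lower outside the midbrain. Clec7a, the fungal glucan receptor Dectin-1, was at 18.1 to 47.3 CPM in the midbrain, 7.17 to 22.6 CPM in the striatum and 1.65 to 8.12 CPM in the PFC. Midbrain and PFC did not overlap, and 0.348% of all genes had every midbrain sample above every PFC sample. The log2 fold change of Clec7a was -2.37 (SE 0.22, adjusted p = 5.37e-10) for the PFC and -1.15 (SE 0.20, adjusted p = 0.000224) for the striatum. The striatum was called above the PFC by 1.23. The study had already reported this order of Clec7a in these same samples, and the gene lists were chosen with earlier results of these data known. The regional p-values of Clec7a and of the other listed genes are thus a description and no independent test. Itgb2, the beta chain of the complement receptor CR3, was at 586.2 to 869.8 CPM in the midbrain (686 ± 77.5, SD), with means of 535 ± 37.4 CPM for the striatum and 558 ± 49.8 for the PFC (-0.30, adjusted p = 0.000302; striatum -0.36, adjusted p = 2.83e-05). Itgam, its alpha chain, stood at 1007, 1006 and 1006 CPM and did not pass. Without mouse 11 the PFC difference of Itgb2 was -0.25, under the fold minimum.

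Among 22 genes that remove superoxide and peroxide, 3 had a region effect. Gpx1, glutathione peroxidase, fell from 1396 ± 282 CPM in the midbrain to 1013 ± 269 in the striatum (-0.46, SE 0.10, adjusted p = 0.00370) and 1114 ± 254 in the PFC (-0.34, SE 0.11, adjusted p = 0.0428). Gpx1 was also the only 1 of the 81 called for sex, lower in males by a log2 fold change of -0.40 (SE 0.09, adjusted p = 0.0256). That fit took the samples as units although sex differs only between mice, so it counted animals more than once. The study had already reported Gpx1 as higher in females. Prdx4, a peroxiredoxin, fell in the PFC (-0.41, SE 0.10, adjusted p = 0.00878). In the striatum it was at -0.26, under the fold minimum, and was called there without any 1 of mice 1, 4, 6, 7, 8, 11 and 12. Cat, catalase, had a region effect (adjusted p = 0.0450) without passing the fold minimum for a pair.

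Of 12 activating kinases, 1 was called. Prkca, a protein kinase C, averaged 18.8 ± 4.41 CPM in midbrain, 23.5 ± 2.76 in striatum and 26.4 ± 4.19 in PFC samples. It was called for the PFC at 0.49 (SE 0.12, adjusted p = 0.00582) and for the striatum at 0.32 (SE 0.12, adjusted p = 0.0832). Without mouse 5 the striatum difference was 0.21 and was not called. Of 5 ion channels and exchangers listed under charge and pH, 1 was called. Trpm2, a cation channel gated by an oxidative signal, averaged 17.4 ± 3.08 CPM in midbrain, 26.4 ± 6.09 in striatum and 21.5 ± 3.93 in PFC samples. It was called for the striatum at 0.60 (SE 0.12, adjusted p = 0.000937). For the PFC it was called at 0.31 (SE 0.12, adjusted p = 0.142). Without mouse 1 the PFC difference was 0.24 and was not called. The striatum was also called above the PFC, by 0.30 (SE 0.12, edgeR adjusted p = 0.289).

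Of 11 transcription factors known to act on promoters of the oxidase, 3 had a region effect. Among them, Irf8, a factor of the myeloid lineage, differed by -0.15 and -0.17, and Nfkb1 by 0.14 and -0.09, all under the fold minimum. Spi1, which encodes PU.1, stood at 505, 523 and 522 CPM and did not pass.

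Of 9 genes that supply NADPH, 3 had a region effect and 0 passed the fold minimum. These were G6pdx (-0.17 in the PFC, -0.18 in the striatum) and Pgd (-0.24, -0.12), which catalyse the NADPH-yielding steps of the pentose phosphate pathway, and Nadk (-0.14, -0.19), the NAD kinase. Of 9 partners of the enzyme, Rap1a (-0.18, -0.17) and Arhgdib (-0.12, -0.23), which holds Rac in the cytosol, had a region effect, and none was called. Of 9 other NADPH oxidases and their organizers, 4 were analysed and none had a region effect. Nox1 was at 3.01 to 3.06 CPM in the mean of each region, and Duox1 at 0.117 to 0.249 CPM. Median log2 fold changes of the 8 lists for the PFC lay between -0.14 (NADPH supply) and 0.18 (other oxidases), beside 0.01 for all genes.

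**Figure D4:**
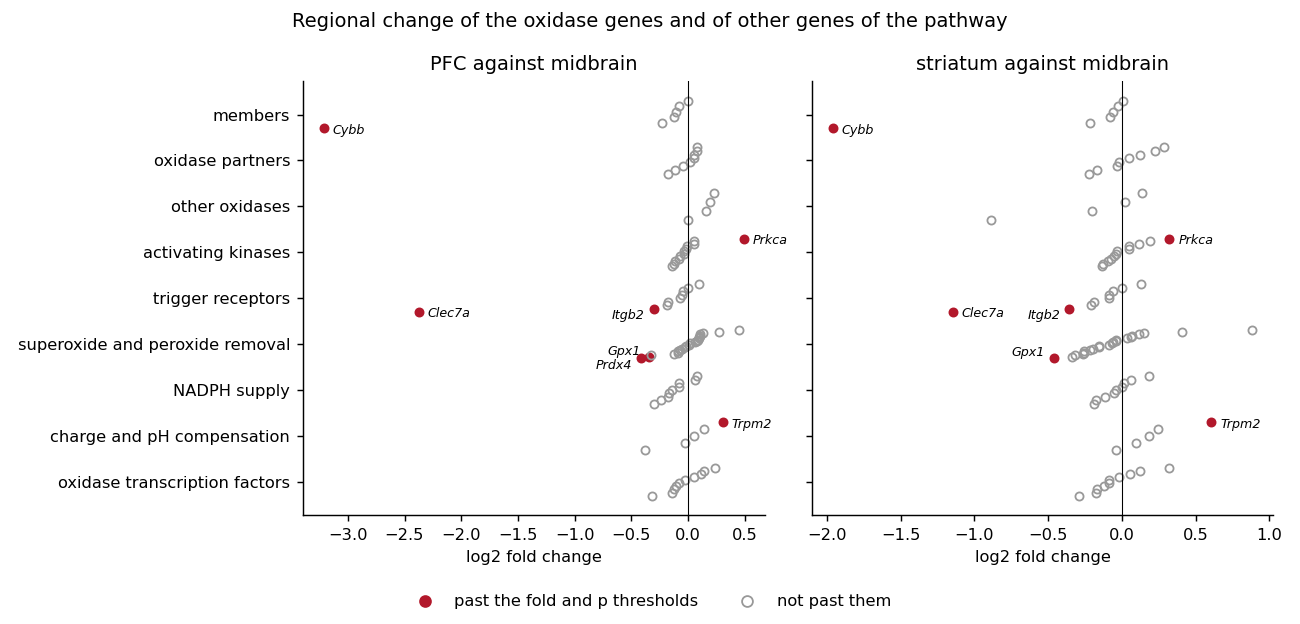
Log2 fold change of the PFC (left) and the striatum (right) against the midbrain for the 6 members and 79 other genes in 8 lists; each point is 1 gene, filled red where the region effect, the p of the pair and a fold of 1.2 were passed. Cybb (-3.21, -1.96) and Clec7a (-2.37, -1.15) lie apart from the rest.

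Patterns over the samples were compared among 8607 genes with a mean of at least 8 CPM. The 5 transcripts whose log2 CPM was most like that of Cybb over the 35 samples were Axl, a receptor for dying cells (Pearson r = 0.91), Fxyd5, a regulator of the sodium pump (0.91), Clec7a (0.86), Ctsc, a lysosomal protease (0.85), and H2-Ab1, an MHC class II chain (0.84). Since samples of a region share its level, these values describe mostly the regional order. Within the 12 midbrain samples alone they were 0.78, 0.73, 0.83, 0.70 and 0.83. The sample of mouse 6 was the highest of these for Cybb and for all 5 transcripts. How far r within the midbrain rests on it was not tested. Axl was at 54.7 ± 21.1 CPM in midbrain, 19.995 ± 10.3 in striatum and 10.7 ± 5.27 in PFC samples, and Fxyd5 at 20.7 ± 5.58, 6.67 ± 2.84 and 2.64 ± 1.04. Ctsc had a smaller span, from 1363 to 905 CPM. H2-Ab1 reached 1187 CPM in the midbrain sample of mouse 6, where the mean of the midbrain was 200.1 CPM. Over all regions without that sample, r ran from 0.80 for H2-Ab1 to 0.91 for Axl.

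For the mean of the 6 members, each set to the same mean and spread, the most alike were Cd14, Rfc2, H2-D1, Lat2 and Nupr1 (r from 0.87 to 0.89). Cd14, the co-receptor for bacterial lipopolysaccharide, averaged 1162 ± 274 CPM in midbrain, 855 ± 121 in striatum and 753.5 ± 147 in PFC samples. H2-D1, an MHC class I chain, was at 1629.9 ± 597, 1127 ± 192 and 973 ± 167 CPM. Lat2, an adaptor of immune receptor signalling, was at 306 ± 33.9, 210.1 ± 30.1 and 169 ± 25.5 CPM.

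**Figure D5:**
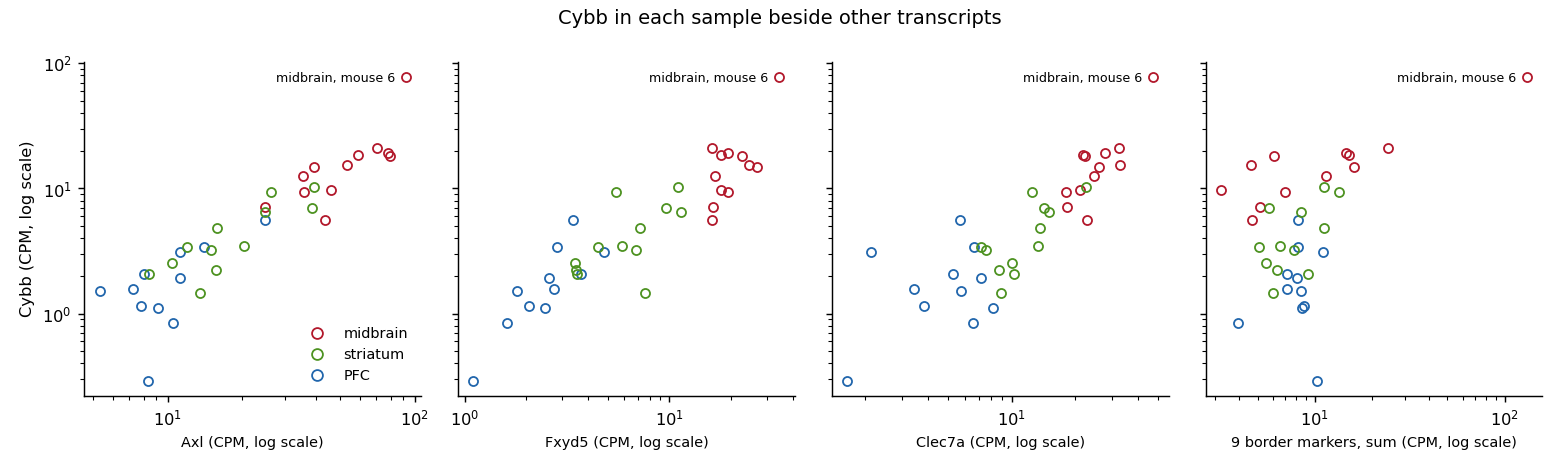
Cybb (vertical axis) against Axl, Fxyd5, Clec7a and the sum of 9 border macrophage markers, all in CPM on log axes; each point is 1 of 35 samples, coloured by region. On average, midbrain samples lie highest for Cybb, Axl, Fxyd5 and Clec7a and PFC samples lowest. The border marker sum was 131 CPM in the midbrain of mouse 6. The midbrain samples of mice 2, 3, 4 and 7 (16.2, 24.2, 15.1 and 14.7 CPM) also lay above the highest striatum sample (13.4 CPM) and every PFC sample. The other midbrain samples overlapped with those regions.

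Markers of other cells were summed for each sample. The 6 analysed neutrophil and monocyte transcripts of 12, cells in which the oxidase is most abundant, summed to 0.876 to 6.20 CPM in the midbrain, 2.04 to 4.76 in the striatum and 2.15 to 44.5 in the PFC. S100a8 was at 0 counts in 26 of the 35 samples and S100a9 in 27. The PFC sample of mouse 1, with 44.5 CPM, had Cybb at 3.12 CPM. The 7 dendritic cell transcripts summed to 26.2 to 48.4 CPM in the midbrain, 22.6 to 29.3 in the striatum and 19.9 to 34.8 in the PFC. The 7 analysed lymphocyte transcripts of 10 summed to 562 to 836 CPM, nearly all of it Ighm at a mean of 675 CPM. Neuronal transcripts were at 2.33 to 8.30 CPM in the midbrain and 15.6 to 38.8 CPM in the PFC, the reverse of the order of Cybb. Astrocyte transcripts summed to 208 to 262.5 CPM in the midbrain, 261 to 429.5 in the striatum and 260 to 494 in the PFC. Over all samples, transcripts of oligodendrocytes summed to 231 to 839.6 CPM and those of endothelial cells to 11.7 to 70.4 CPM. The microglial sum was itself lower in the midbrain (median 52270 CPM) than in the striatum (58474 CPM) and the PFC (57475 CPM). The part of these cells in the results was not tested.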

How the data were processed

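RNA of sorted microglia (Smart-seq HT cDNA, Nextera XT libraries, paired reads of 50 bases) was compared between midbrain, striatum and PFC. The deposited values, per the file headers and the study's methods, are unscaled counts for each Ensembl gene, made after trimming with Trimmomatic and alignment to GRCm38 with HISAT2 and filtered for low expression. The counter, its use of strand and its handling of reads with several matches are not given in the sources used here, which leaves overlapping and near-identical genes uncertain. Here, the counts were named and measured for exon length with GENCODE M21 and fitted in R 4.3.3 with edgeR 4.0.16 (TMM, robust quasi-likelihood F-test; region plus sex, or 6 group means). Calls needed an adjusted region p under 0.05, then p under 0.05 and a fold over 1.2 for a pair; sex needed the latter alone. DESeq2 1.42.0 and limma 3.58.1 served as alternatives, and Python 3.11.15 with matplotlib 3.10.9 drew the plots. The additive edgeR model was first tested on simulated data, for the PFC against the midbrain and for sex. The simulated samples were independent, without the likeness between samples of a mouse, and the other models were not simulated. The limit of 3 counts covers counting error only, while SDs and SEs hold the spread between samples.

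The members and gene lists were chosen with earlier results of these data known. Named genes were the members, Rac1, list genes with a region effect and the 5 transcripts most like Cybb or the mean of the members. Itgam, Spi1, Nox1, Duox1, genes that overlap a member and markers beside a result were named after their values were seen. Samples of the same mouse deviated together (mean r 0.347 over 34 pairs, against -0.0675 over 170 pairs of other mice of the same sex in other regions), and the number in the labels' titles was taken as the mouse. Alternatives chosen after the data were seen left out the midbrain sample of mouse 6 or 2 samples of mouse 5, added a term for mice 7 to 12, or compared those mice on counts summed per mouse. Listed genes that the table does not hold were not analysed here, and results for 2 listed genes, which the counts by list include, are not reported here.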

Additional observations from a re-analysis of the deposited data

Results flagged for a closer look

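Within groups of 1 region and 1 sex, 3 of 36 tests found a sample far from the others by Dixon's criterion. About 1 in 20 of all such tests finds one by chance. Cyba stood at 1122 CPM in the midbrain of mouse 5, a male, and at 1028 CPM in the PFC of the same animal, while its striatum sample, at 745 CPM, did not meet the criterion. The midbrain library of mouse 5 was also the one least like its own group. Cybb stood at 77.9 CPM in the midbrain of mouse 6, a female, the sample in which Ms4a7 and H2-Ab1 were highest in the midbrain. The part of other cells in these values was not tested.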

How the results depend on the processing

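The log2 fold changes of the 6 members between regions moved by less than the SD of the within-mouse differences under every alternative run, 432 of 432 values, and Cybb kept its sign. That SD is a wide measure. For Cybb it was 1.58 for the PFC and 1.45 for the striatum against the midbrain. For Cyba, Ncf1 and Rac2 the SD exceeded the difference of the PFC from the midbrain, so even a change of sign could count as unmoved. Leaving out each mouse in turn gave -3.49 to -2.73 for Cybb in the PFC and -2.23 to -1.48 in the striatum against the midbrain. With mouse as a replicate block Cybb had -3.03 and -1.91 and Ncf4 -0.25 and -0.22, and the block changed no call of a named pathway gene between the midbrain and another region.

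The number of other pathway genes called for the PFC against the midbrain fell from 7 to 1, and for the striatum against the midbrain from 6 to 1, in mice 1 to 6 alone, a fit of fewer samples. Leaving out each mouse gave 5 to 7 and 4 to 7. For the striatum against the PFC, 2 genes became 5 with the replicate block, 4 with DESeq2, 4 with a term for mice 7 to 12 and 1 in mice 1 to 6 alone, and 1 to 2 with each mouse left out, the 1 without mouse 8 or 10. Pathway genes called for sex rose from 1 to 2 in mice 1 to 6 alone and without the midbrain sample of mouse 6, to 3 in mice 7 to 12 alone, and were 1 to 2 with each mouse left out (2 without mouse 1, 4, 5, 6, 8 or 11). The cause was not tested.

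No member was called for sex under any alternative, among them counts summed per mouse and limma-voom with the mouse as a replicate block (consensus correlation 0.168), nor for the interaction with the replicate block or DESeq2. Differences near 0 changed sign. Ncf1 was at 0.00168 with DESeq2 size factors, 0.00167 with DESeq2, 0.00275 with edgeR's filterByExpr, 0.00145 without the striatum sample of mouse 3, 0.00189 without the midbrain sample of mouse 6, 0.0563 in mice 7 to 12 alone and 0.0325 without the 2 samples of mouse 5. Cyba was at -0.0482 in mice 7 to 12 alone, -0.0874 without the 2 samples of mouse 5, -0.00466 with counts summed per mouse and -0.0114 with limma-voom and the replicate block. Ncf4 (-0.0191) and Hvcn1 (-0.0194) turned in mice 1 to 6 alone, Ncf4 (-0.00887) without the 2 samples of mouse 5, and Cybb (0.00691) and Rac2 (0.00172) without the midbrain sample of mouse 6. With each mouse left out, the sex difference ran from -0.100 to 0.0511 for Cyba, -0.0271 to 0.0228 for Ncf1, -0.0187 to 0.0325 for Ncf4, -0.0345 to 0.0280 for Rac2, -0.0297 to 0.0711 for Hvcn1 and -0.43 to -0.0652 for Cybb.

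On the longest transcript in place of all exons, levels per kilobase rose to 997 for Cyba, 171 for Ncf1, 66.2 for Ncf4 and 156 for Hvcn1, with the same order of the members. At the lowest Cybb levels, in the PFC, a sample held as few as 15 counts.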
